A study of Homo sapiens with 6 samples.

Results

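miR-221 and miR-222 are a pair of closely related microRNAs (miRNAs) made from neighbouring hairpins on the X chromosome. All 4 of their mature forms, hsa-miR-221-3p, hsa-miR-221-5p, hsa-miR-222-3p and hsa-miR-222-5p (written below without the species prefix), were taken by name from the 2588 mature miRNAs listed in the count table. The libraries came from Caco-2, an established epithelial cell line derived from a human colorectal adenocarcinoma, grown without treatment. For 3 input libraries RNA was set aside before immunoprecipitation, and for 3 m7G-RIP libraries decapped, heat-denatured RNA was pulled down with an antibody against 7-methylguanosine (m7G). The study's protocol decaps the RNA of both groups and exposes both to 7-methyl-GTP before purification, and the comparison asks which miRNAs the m7G antibody recovers beyond their share in the input. Nothing in the labels says that replicates came from separate cultures, so p-values measure the spread between these libraries, which may be technical. A library with a control antibody was not analysed here.

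A miRNA hairpin is cut by DROSHA and DICER into a short duplex, whose 5p and 3p arms can each be loaded onto an Argonaute protein. Bases 2 to 8 of the loaded arm, the seed, set most of its choice of target mRNAs. miR-221-3p and miR-222-3p are well known as miRNAs raised in many tumours, where they repress CDKN1B and CDKN1C, inhibitors of the cyclin-dependent kinases (CDKs) that drive the cell cycle, and KIT, a receptor tyrosine kinase. The 5p arms are the passenger strands in most tissues.

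The sequences of the members are shown first because the result turns on 2 miRNAs with the same seed. RefSeq (GRCh38.p14) held mature sequences for 3 of the 4 members, and miR-221-5p is named only. They are written 5′ to 3′ with the seed in capitals:
miR-221-3p: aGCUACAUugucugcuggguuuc
miR-222-3p: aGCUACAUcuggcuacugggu
miR-222-5p: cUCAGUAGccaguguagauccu
miR-221-3p is 23 bases long and miR-222-3p is 21. Their first 8 bases are identical, and after these the longest run they share is the 6 bases cugggu near the 3′ end. In a global alignment 18 of 24 columns were identical. No run longer than the first 8 bases is common to both. The seed GCUACAU occurs in no other human mature miRNA of the RefSeq table, and that of miR-222-5p, UCAGUAG, is shared with none.

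The hairpin genes lie on the minus strand of chromosome X in GRCh38, the build to which the reads were mapped. MIR222 spans chrX:45747015-45747124 and MIR221 spans chrX:45746157-45746266, 748 bases further in the direction of transcription. Each hairpin is 110 bases long, and 60.7% of the columns of their alignment were identical. Both lie within MIR222HG (ENSG00000270069.3), a long noncoding RNA gene on the same strand. In GENCODE release 44 the MIR222 hairpin overlaps no exon of this host gene, while 24 bases of MIR221 overlap exon 1 of the transcript MIR222HG-203. On the minus strand miR-222-3p lies at chrX:45747036-45747056, miR-222-5p at chrX:45747073-45747094 and miR-221-3p at chrX:45746180-45746202. Each of these mature sequences has 1 locus.

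Total counts on miRNAs ranged from 16466178 to 19628046 in the input and from 1654102 to 3105129 in m7G-RIP, with m7G-RIP replicate 3 the shallowest. Levels are given as CPM, a miRNA's counts scaled to a common library size with edgeR's TMM correction. On this scale 3 counts were worth 0.235 to 0.262 CPM in the input and 0.676 to 1.11 CPM in m7G-RIP, for counting error only. No library was a copy of another of its group (the smallest chi-square statistic between replicates was 17.5 per degree of freedom). The epithelial miRNAs miR-200a-3p, miR-200b-3p, miR-200c-3p and miR-141-3p summed to between 41452 and 41803 CPM in the input and the intestinal miR-192-5p, miR-194-5p and miR-215-5p to between 70900 and 78780.1 CPM, both being markers of the labelled cell type. The 4 blood markers summed to at most 15.9 CPM and the liver marker miR-122-5p was at 0 in all 6 libraries, while the neuronal miR-124-3p and miR-9-5p summed to between 2841 and 3078 CPM and the 3 muscle markers to between 673 and 752 CPM in the input. A sum does not show that each of its markers was present. Over the 6 libraries miR-9-5p had a mean log2 CPM of 10.67, and of the muscle markers miR-1-3p had 9.45 and miR-133a-3p 5.12. The part of other cell types in the levels below was not tested.

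All 4 members were among the 800 miRNAs that passed the filter on low counts. In m7G-RIP miR-222-3p was enriched, miR-221-3p and miR-221-5p were depleted, and miR-222-5p did not pass the test. These calls have a wide background, because 40.1% of the 800 tested miRNAs were called enriched and 38.1% depleted (edgeR's quasi-likelihood test at a Benjamini-Hochberg adjusted p-value under 0.05). In 41.4% of them all m7G-RIP libraries were above all input libraries in CPM, and in 40.8% all were below. Each call also depends on how the libraries are scaled against each other, so the members were compared with each other within libraries as well, where the scaling has no part.

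miR-222-3p, a guide strand, had 33598, 39350 and 33676 counts in input replicates 1, 2 and 3, or 2864, 3083 and 2939 CPM. In m7G-RIP it had 23234, 27512 and 13043 counts, or 5640.2, 6195 and 4805 CPM. All 3 m7G-RIP libraries lay above all 3 input libraries. The mean was 2962 ± 111 CPM in the input and rose to 5547 ± 699 CPM in m7G-RIP (SD, n = 3 in each group). This is a log2 enrichment of 0.91 ± 0.14 (standard error), or 1.87-fold, and edgeR's quasi-likelihood test gave an adjusted p of 5.98e-05. The size depends on the scaling: the log2 enrichment was 2.00 with total counts alone, 1.73 using upper-quartile factors and 0.56 using DESeq2's size factors, and the call was kept in each. By counts it was the 39th or 40th miRNA of the input and between the 19th and the 24th in m7G-RIP. Among all tested miRNAs its position was moderate, since 60.0% of the tested miRNAs had a lower log2 enrichment.

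miR-221-3p, the guide strand with the same seed, had 32108, 39588 and 34442 counts in the input, or 2737, 3101 and 3005 CPM. In m7G-RIP it had 2121, 2675 and 1427 counts, or 515, 602 and 526 CPM. The groups did not overlap, and every m7G-RIP library lay below every input library. The mean was 2948 ± 189 CPM in the input and fell to 548 ± 47.7 CPM in m7G-RIP (SD, n = 3 in each group). This is a log2 enrichment of -2.43 ± 0.14 (standard error), or 5.38-fold lower, with an adjusted p of 3.96e-09 in the edgeR test. With total counts alone the log2 enrichment was -1.32, using upper-quartile factors -1.61 and using DESeq2's size factors -2.77, and the call was kept in each. It moved from between the 39th and 43rd place to between the 69th and 81st, and 21.2% of the tested miRNAs had a lower log2 enrichment.

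miR-221-5p, the passenger arm of the same hairpin, had 2045, 2558 and 2161 counts in the input, or 174, 200.4 and 189 CPM. In m7G-RIP it had 289, 357 and 136 counts, or 70.2, 80.4 and 50.1 CPM. The groups did not overlap, and m7G-RIP replicate 3 was the lowest. The group means were 188 ± 13 CPM and 66.9 ± 15.4 CPM (SD, n = 3 in each group). Its log2 enrichment was therefore -1.48 ± 0.19 (standard error), and the edgeR test gave an adjusted p of 1.32e-05. Scaling by total counts alone ended this call, with a log2 enrichment of -0.40 and an adjusted p of 0.0509 in the same test.

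miR-222-5p, the passenger arm of miR-222, was rare. It had 57, 63 and 51 counts in the input, or 4.86, 4.94 and 4.45 CPM, and 17, 4 and 9 counts in m7G-RIP, or 4.13, 0.901 and 3.32 CPM. The exact 95% Poisson interval of the 4 counts of m7G-RIP replicate 2 was 0.245 to 2.31 CPM, while that of the 17 counts of replicate 1 was 2.4 to 6.61 CPM, and the interval of replicate 1 contained each of the input values. Although no m7G-RIP value reached the lowest input value, the log2 enrichment of -0.80 had a standard error of 0.49 and did not pass the edgeR test, whose adjusted p was 0.15. The sign of this value also depended on the scaling: it was 0.28 with total counts, 0.02 when upper-quartile factors were used, and with DESeq2's size factors it was -1.15 with an adjusted p of 0.0451 in the edgeR test. Without m7G-RIP replicate 1 it was -1.36 with an adjusted p of 0.0256 in the edgeR test.

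**Figure D1:**
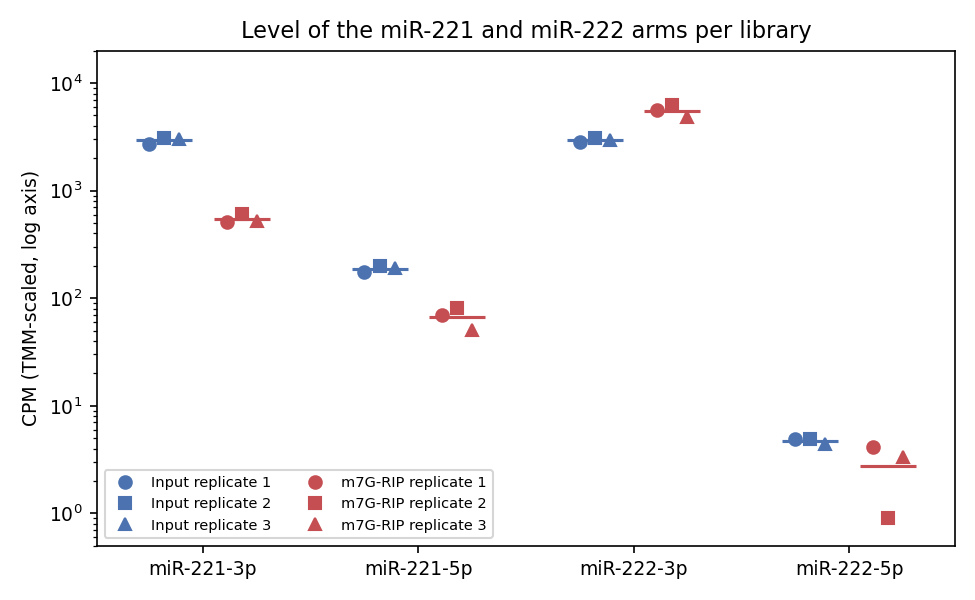
CPM of the 4 members in each of the 6 libraries, on a log axis; points are libraries, marked by replicate number, and horizontal lines are group means. miR-221-3p and miR-222-3p start together, at means of 2948 and 2962 CPM in the input, and separate to 548 and 5547 CPM in m7G-RIP.

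**Figure D2:**
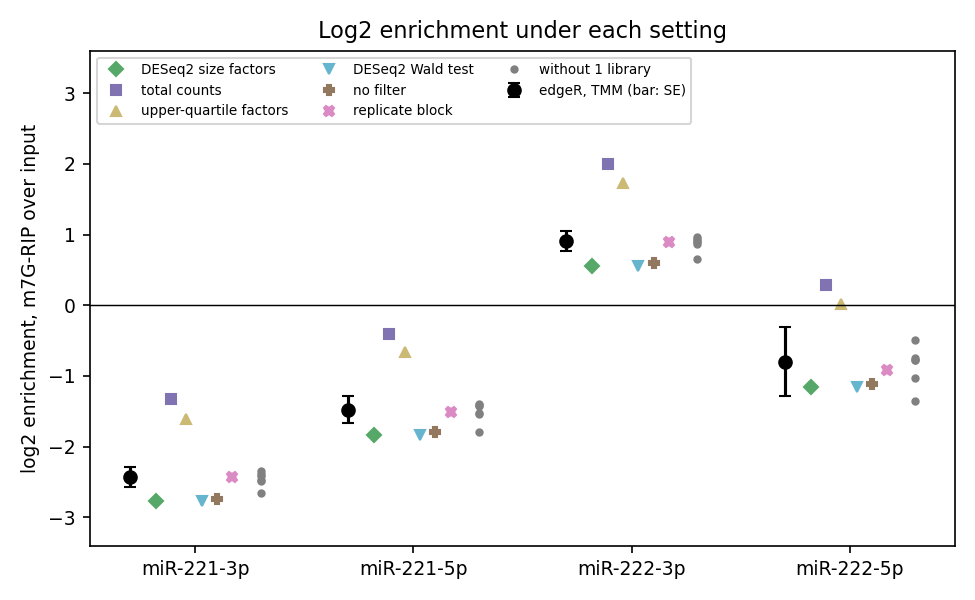
Log2 enrichment of m7G-RIP over input for each member under TMM scaling, with its standard error, and under other scalings, tests and sets of libraries. miR-222-3p stays above 0 (0.56 to 2.00) and miR-221-3p below 0 (-2.77 to -1.32) under every setting plotted, while miR-222-5p lies on both sides.

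Of the 4 members the order by level in the input was thus miR-222-3p and miR-221-3p, whose values overlapped, then miR-221-5p, then miR-222-5p. In m7G-RIP the order was miR-222-3p, miR-221-3p, miR-221-5p and miR-222-5p, and no neighbours overlapped. These levels are counts of mature miRNAs of similar length and were not corrected for length.

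Within each library the ratio of miR-222-3p to miR-221-3p compares both guide strands directly. It was 1.05, 0.994 and 0.978 in the input and 11.0, 10.3 and 9.14 in m7G-RIP. The seed-sharing pair thus had nearly equal counts before immunoprecipitation and very unequal counts after it. On the log2 scale, with 0.5 added to each count, the ratio went from 0.01 ± 0.05 (SD, n = 3) to 3.34 ± 0.13 (SD, n = 3), a difference of 3.33 (standard error 0.08). The groups did not overlap, and the exact two-sided permutation test over libraries gave p = 0.1, the smallest that 3 libraries against 3 allow (0.15 after Benjamini-Hochberg adjustment over the 6 pairs of members). No pair could therefore reach 0.05 in this test, and the sizes are to be read against the spread between libraries.

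Expressed as a share of the counts with the seed GCUACAU, miR-222-3p made up 51.1% (95% Wilson interval 50.8 to 51.5), 49.8% (49.5 to 50.2) and 49.4% (49.1 to 49.8) in input replicates 1, 2 and 3. In m7G-RIP it made up 91.6% (91.3 to 92.0), 91.1% (90.8 to 91.5) and 90.1% (89.6 to 90.6). These intervals cover counting error only, and the spread over libraries was 0.885 (SD, n = 3) around 50.1% in the input and 0.762 (SD, n = 3) around 91.0% in m7G-RIP. The sum of both miRNAs behaved differently from either. It was 5909.8 ± 293 CPM (SD, n = 3) in the input and 6095 ± 735 CPM (SD, n = 3) in m7G-RIP, a log2 difference of 0.04 that was smaller than the spread between libraries (exact two-sided permutation test, p = 0.9). The level of the sum depends on the scaling, with a log2 difference of 1.14 under total counts and -0.31 under DESeq2's size factors, where the groups did not overlap, but the shares do not.

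The arms of a hairpin were compared in the same way. miR-221-3p outnumbered miR-221-5p 15.7, 15.5 and 15.9 times in the input and 7.34, 7.49 and 10.5 times in m7G-RIP. Both arms were depleted, the 3p arm by more: the log2 ratio of 3p to 5p fell by 0.92 (standard error 0.17; 3.97 ± 0.02 in the input and 3.05 ± 0.29 in m7G-RIP, SD, n = 3; exact two-sided permutation test, p = 0.1). miR-222-3p outnumbered miR-222-5p 589, 625 and 660.3 times in the input and 1367, 6878 and 1449 times in m7G-RIP. Here the log2 ratio rose from 9.27 ± 0.08 to 11.13 ± 1.26 (SD, n = 3), a difference of 1.85 (standard error 0.73, exact two-sided permutation test, p = 0.1). Most of its spread came from the 4 counts of miR-222-5p in m7G-RIP replicate 2, and without that library the difference was 1.13.

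The remaining 3 of the 6 pairs set members across hairpins and arms. miR-222-3p gained 2.41 (standard error 0.10) over miR-221-5p on the log2 scale, and the groups did not overlap (exact two-sided permutation test, p = 0.1). miR-222-5p differed from miR-221-5p by 0.56 (standard error 0.79, exact permutation p = 0.4) and from miR-221-3p by 1.48 (standard error 0.72, exact permutation p = 0.2), and in both pairs the libraries of the groups overlapped. Without m7G-RIP replicate 2, with its 4 counts of miR-222-5p, these differences were 1.35 and 2.19, and with any 1 library left out they ran from 0.11 to 1.35 and from 1.04 to 2.19. Neither difference could be placed beyond the spread between libraries, which does not show that these miRNAs were recovered alike.

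**Figure D3:**
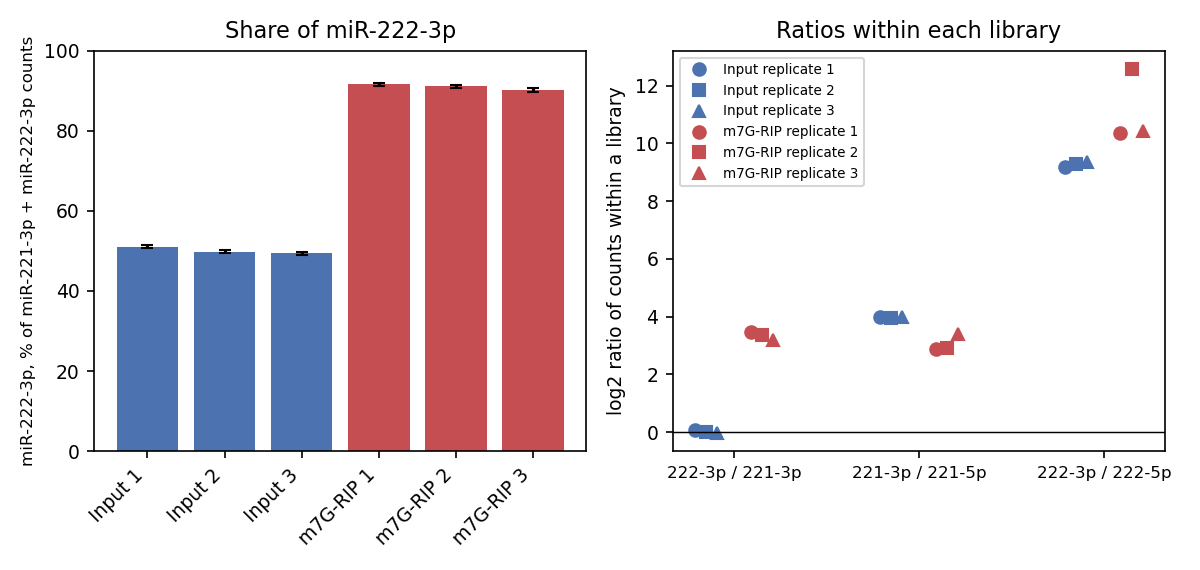
Left, miR-222-3p as a percentage of the summed counts of miR-221-3p and miR-222-3p in each library, with 95% Wilson intervals. Right, log2 ratios of counts within each library for the 2 guide strands and for the arms of each hairpin. The share is near 50.1% in the input and 91.0% in m7G-RIP, and m7G-RIP replicate 2 stands apart for miR-222-3p over miR-222-5p.

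How far 2 miRNAs with the same seed differ elsewhere in these libraries was measured over 189 pairs of tested miRNAs that share bases 2 to 8 but not the whole sequence, from 62 seeds. Pairs of 1 family share members and are not independent, so the values are a description. The median absolute difference in log2 enrichment was 1.07, and 88.9% of the pairs differed by less than miR-221-3p and miR-222-3p. Of the 20 pairs that differed by more, the widest were miR-32-5p and miR-92b-3p (7.28), miR-32-5p and miR-92a-3p (6.47), and miR-130b-3p and miR-301a-3p (6.44). In 15 of the 189 pairs, miR-221-3p and miR-222-3p among them, one miRNA was called enriched and the other depleted. Among the 105 pairs in which both miRNAs had a mean log2 CPM of at least 5, 89.5% differed by less.

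The pair also comes from 1 host gene. A set of 125 pairs of tested miRNAs was compared, chosen after the data were seen. Each pair was of the same arm, with hairpins on the same strand within 10 kb of each other. The median absolute difference was 1.55, and 71.2% differed by less than miR-221-3p and miR-222-3p. Of these pairs 17 also shared a seed. Among the 17, 2 differed by more, miR-301b-3p and miR-130b-3p (4.94) and miR-362-5p and miR-500b-5p (3.71). The set did not hold every pair of this kind. It held miR-181a-3p and miR-181b-3p, but not the other arms, miR-181a-5p and miR-181b-5p, which share a seed. The values therefore describe these 125 pairs and not all neighbouring hairpins.

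For the arms, 194 hairpins had both arms tested. The 3p arm had the lower log2 enrichment in most of them, with a median difference of -0.91 (quartiles -2.84 and 0.79). miR-221, at -0.95, lay close to that median, with 49.0% of the hairpins below it. For miR-222 the difference was 1.71, with 82.0% of the hairpins below it, and 40.2% differed by less in absolute size. This value rests on the rare miR-222-5p, which was not called. Without m7G-RIP replicate 2, 75.9% of the hairpins lay below miR-222. In 99 of the 194 hairpins both arms were called in the same direction, as in miR-221, and in 36 in opposite directions. Of all 800 tested miRNAs 40.1% were called enriched and 38.1% depleted. The number of such hairpins expected from unrelated arms was not computed.

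**Figure D4:**
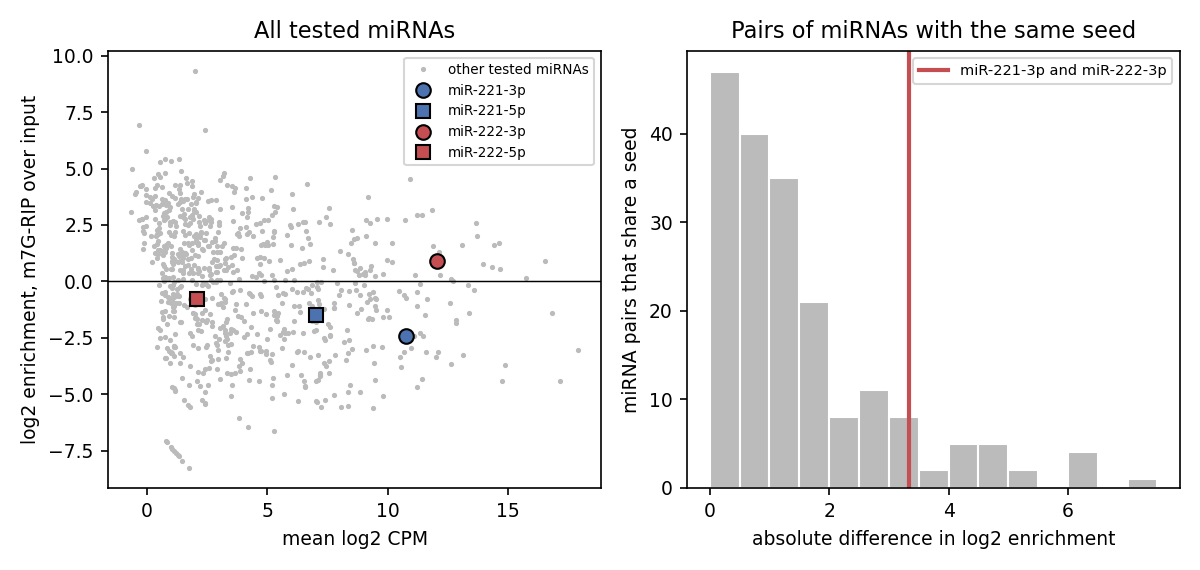
Left, log2 enrichment against mean log2 CPM for the 800 tested miRNAs, with the 4 members marked. Right, absolute differences in log2 enrichment over the 189 pairs of miRNAs with the same seed, with the value for miR-221-3p and miR-222-3p (3.33) as a line, to the right of 88.9% of the pairs.

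Because m7G is a modified guanosine, the runs of G in the mature sequences are shown next, in capitals:
miR-221-3p: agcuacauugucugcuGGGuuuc
miR-222-3p: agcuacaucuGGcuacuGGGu
miR-222-5p: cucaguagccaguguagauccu
miR-221-3p and miR-222-3p hold 6 G each, or 26.1% and 28.6% of their bases, against a median of 27.3% over the 714 tested miRNAs with a RefSeq sequence. Both hold GGG, and miR-222-3p holds a further GG. miR-222-5p holds 5 G and no GG. GGG was found in 261 of the 714 miRNAs (36.6%). The median log2 enrichment was 2.08 with GGG and -0.76 without it, and of the 261 miRNAs with GGG 170 were called enriched, miR-222-3p among them, and 51 depleted, miR-221-3p among them. Of all 714, 290 were called enriched and 268 depleted. GG was found in 74.1%. Of the 77 miRNAs with 6 G, 8 were called enriched, miR-222-3p among them, and 43 depleted. These counts describe letters on the sense strand of the mature RNA and not sites of modification. A miRNA could pass the filter on low counts through the group where it was high. The counts by G content were not recomputed under another filter, so the part of the filter in the GGG difference was not tested. Neither hairpin, with 28 G in MIR221 and 29 in MIR222, holds a stretch in which 4 runs of 2 or more G are spaced by 1 to 4 other bases, a form that can fold into a G-quadruplex.

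The miRNAs whose pattern over the 6 libraries was most like that of a member were found by Euclidean distance between centred log2 CPM values, among miRNAs with a mean log2 CPM of at least 5. For miR-222-3p they were miR-1292-5p (distance 0.18, log2 enrichment 0.92) and let-7d-5p (0.25, log2 enrichment 1.0), a member of the let-7 family of tumour suppressor miRNAs. For miR-221-3p they were miR-30c-5p (0.22, log2 enrichment -2.44) and miR-93-5p (0.23, log2 enrichment -2.43). For miR-221-5p they were the epithelial miR-200b-3p (0.38, log2 enrichment -1.41) and miR-25-3p (0.39, log2 enrichment -1.47). For miR-222-5p, compared with all tested miRNAs, they were miR-1248 (0.64, log2 enrichment -1.0) and miR-767-3p (0.68, log2 enrichment -1.60). The distance uses the same input and m7G-RIP values, so a log2 enrichment near the member's own follows from the selection.

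Other miRNAs reported to repress CDK inhibitors of the CIP/KIP family gave a context for both guide strands. All 11 of the list were tested, and 10 were depleted and 1 was enriched, against 38.1% and 40.1% of all tested miRNAs. Their median log2 enrichment was -3.07, against 0.16 over all tested miRNAs. The lowest was miR-106b-5p, which represses CDKN1A, at 421 ± 31.1 CPM in the input and 12.9 ± 1.34 CPM in m7G-RIP (SD, n = 3 in each group). Its log2 enrichment of -5.02 ± 0.19 (standard error) had an adjusted p of 9.37e-11 in the edgeR test. The only one enriched was miR-92b-3p, which represses CDKN1C, at 536 ± 22.6 CPM in the input and 1761 ± 31.3 CPM in m7G-RIP. Its log2 enrichment of 1.72 ± 0.13 (standard error) had an adjusted p of 6.43e-08 in the edgeR test. In this list miR-222-3p would stand beside miR-92b-3p and miR-221-3p beside the depleted majority. Several of the 11 share a seed with each other and are not independent, and the list was chosen with earlier results of these data known.

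On chromosome X, 55 other tested miRNAs had all their loci in RefSeq. Of these 36 were depleted (65.5%) and 9 enriched (16.4%), against 38.1% and 40.1% of all tested miRNAs. Their median log2 enrichment was -1.60, against 0.16 over all tested miRNAs. A miRNA could pass the filter on low counts through the group where it was high, and some lay near the floor in the other group. Among the enriched, miR-6894-5p had a mean of 0.393 CPM in the input and 6.3 CPM in m7G-RIP. Among the depleted, miR-660-3p had a mean of 4.88 CPM in the input and 0 in m7G-RIP. With at least 10 counts in every library 2 X-linked miRNAs were enriched and 21 depleted. Of all 426 miRNAs tested under this filter 182 were enriched and 175 depleted. The number of X-linked miRNAs among the 426 is not given here. With total counts 17 X-linked miRNAs were enriched and 25 depleted, against 442 and 198 of all 800 tested miRNAs.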

How the data were processed

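Small RNA was sequenced from 3 input and 3 m7G-RIP libraries of Caco-2 cells. Before deposit the authors removed adaptor sequence (Trimmomatic), aligned the reads to GRCh38 and used featureCounts to count them per mature miRNA of miRBase 22. The methods name STAR as the aligner, and the submitters' processing notes name Bowtie2. Versions and the counting of reads with several loci are not given in the sources used here. The deposited values are raw counts per miRNA and library, without normalization or pooling.

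Log2 enrichment was estimated from these counts in R 4.3.3 using edgeR 4.0.16: filterByExpr (minimum count 10, minimum total 15), TMM factors, the quasi-likelihood test and Benjamini-Hochberg adjustment over all 800 tested miRNAs, with a threshold of 0.05. The standard error is the absolute log2 enrichment divided by the square root of F. Ratios between members used 0.5 added to each count and exact permutation tests over libraries. The edgeR fit was tested on simulated counts in which some miRNAs were changed, equally in both directions. This could not test the choice of scaling for the real libraries. Replicate numbers come from the labels. Same-numbered libraries did not deviate together (correlations of -0.0142, -0.0275 and 0.06), so the replicate number was not used as a block. Alternatives were other scalings (total counts, upper-quartile factors, DESeq2's size factors), DESeq2 1.42.0, other filters, the replicate block, a threshold of 0.01 and leaving out each library. Other scalings of the summed 3p level were added after the data were seen. Python 3.11.15, pandas 2.3.3, scipy 1.17.1 and matplotlib 3.10.9 were used, with RefSeq sequences, matched by name for 714 tested miRNAs, and GENCODE release 44.

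The members and lists were chosen with earlier results of these data known. Named miRNAs are the 4 members, the highest and lowest of the CDK inhibitor list, the 2 most alike in pattern to each member, with 0.5 added to CPM, and up to 3 same-seed pairs with a larger difference. The neighbouring hairpins were chosen after their values were seen.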

Additional observations from a re-analysis of the deposited data

How the results depend on the processing

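Of 208 recomputed values, 190 were classed as the same and 2 reversed in sign. For counts and differences this class was wide. It took in 423 depleted miRNAs with no filter against 305 as reported, and 442 enriched with total counts against 321. It also took in a difference between miR-222-5p and miR-221-5p of 0.11 without m7G-RIP replicate 3, against 0.56. miR-222-3p stayed enriched and miR-221-3p depleted under every setting run: with each library left out in turn the log2 enrichment was 0.66 to 0.97 for miR-222-3p, -2.66 to -2.34 for miR-221-3p, -1.79 to -1.40 for miR-221-5p and -1.36 to -0.49 for miR-222-5p. miR-221-5p lost its call with total counts (-0.40). miR-222-5p reversed with total counts (0.28) and upper-quartile factors (0.02). It passed the threshold with DESeq2's size factors (-1.15), DESeq2's Wald test (-1.15), no filter (-1.11) and without m7G-RIP replicate 1 (-1.36); with at least 10 counts in every library it was not tested. Over all tested miRNAs, total counts shifted the median by 1.09 from its value under TMM, upper-quartile factors by 0.82 and DESeq2's size factors by -0.34. Enriched miRNAs were 51.3% of the calls under TMM and 69.1%, 64.8% and 45.1% in turn under these scalings. Ratios within a library take no part in this. The difference between miR-222-3p and miR-221-3p was 3.27 to 3.40 with each library left out. With the replicate block no call of a member changed, and the values were 0.90 for miR-222-3p, -2.43 for miR-221-3p, -1.51 for miR-221-5p and -0.91 for miR-222-5p; the replicate block gave 3.33 for the difference between the guide strands, and 296 enriched and 295 depleted miRNAs.

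Of all tested miRNAs 182 were enriched and 175 depleted with at least 10 counts in every library, where 426 were tested, and 198 were depleted with total counts, against 321 and 305 as reported. With each library left out 268 to 341 were enriched and 235 to 377 depleted. The enriched X-linked miRNAs numbered 17 with total counts, 14 with upper-quartile factors and 2 with at least 10 counts in every library, which left 21 depleted. miR-222-5p had the fewest counts of the members, 4 to 17 in m7G-RIP, and the part of depth in its result was not tested.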
